A study of Bos taurus with 28 samples.

Results

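The genes described here encode the proteins that modify, fold and crosslink collagen: the hydroxylases P3H2, P4HA1, P4HB, PLOD1 and PLOD2, the peptidyl-prolyl isomerases PPIB and PPIC, the collagen chaperone SERPINH1 and the crosslinking enzyme LOX. They were taken as all probe sets that the platform annotation pairs with 1 of these 9 symbols and no other (P3H2 also appears as LEPREL1). They are 9 of the 9155 genes that a single symbol names among the tested probe sets. They have 16 of the 24128 probe sets on the array, of which 13 belong to the 24016 that were tested and 3 are control probe sets for PPIB. The set was chosen with results of these data in view, and its core was selected on measured values: PPIC and P3H2 stood among the smallest p-values for KK minus AA and for the slope per K allele. Values in those contrasts are therefore given as descriptions, with no p-value for a single probe set and in support of nothing. Counts by p in them are printed beside the share over the array, and nothing is read from them.

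RNA from mammary biopsies of 28 mid-lactation cows, all of the Holstein-Friesian dairy breed, was measured, each on its own Affymetrix Bovine Genome Array. The cows differ in DGAT1, which encodes an enzyme of triacylglycerol synthesis. The labels give 11 cows as AA (alanine on both alleles), 13 as KA (lysine and alanine) and 4 as KK (lysine on both alleles). All were fed a control diet, and no other allele or treatment separates the groups in the labels. The cows are separate animals, and the 4 KK animals set the precision of any comparison with KK. The tissue is a whole biopsy, so fewer cells of a type and less RNA per cell cannot be told apart.

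Collagen chains are hydroxylated on prolines and lysines in the endoplasmic reticulum while they fold. Prolyl 4-hydroxylation stabilises the triple helix, peptidyl-prolyl isomerases speed its folding, and SERPINH1 (HSP47) binds the folded procollagen on its way out of the cell. Outside the cell LOX oxidises lysines and hydroxylysines, which starts the covalent crosslinks of the fibril. In the mammary gland fibrillar collagen lies mainly in the stroma around the secretory epithelium, while several of the folding proteins, among them P4HB and PPIB, also serve the general secretory pathway of other cells.

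Each value is a log2 difference from a baseline of its own probe set, and how that baseline was set is not described in any source used here. A value of 0 is the baseline, a difference of 1 is a doubling on the linear scale, and levels of different probe sets cannot be compared. Where a gene has several, a probe set is named here by the end of its identifier (S1, S2 or A1), or, for PPIB and PLOD1, by whether the annotation ties it to a RefSeq mRNA or to an expressed sequence tag (EST). A coarse level was read from the rounding steps of the values. PPIB (the RefSeq-based probe set and the controls), P4HA1 and P4HB were bright, at a log2 level of about 8 or more. The EST-based PPIB probe set, both PLOD1 probe sets, PPIC S1, LOX and SERPINH1 were intermediate. P3H2, both PLOD2 probe sets and PPIC A1 were dim, at a log2 level around or below 4.

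The cows AA 2 and AA 9 stand apart from the rest. Across tested probe sets their values spread with an SD of 0.861 and 0.781, against 0.213 to 0.348 in the other 26 arrays. Their 9 fibroblast markers averaged 1.05 and 1.48 over 15 probe sets, above a range of -0.46 to 0.42 in the others. Their 10 luminal secretory markers averaged -1.06 and -1.79 over 13 probe sets, below a range of -0.27 to 0.14. Of the tested collagen-modifying probe sets, 6 of 13 lay outside the range of the other 26 arrays in AA 2 and 8 of 13 in AA 9, against 57.3% and 53.0% of all tested probe sets. Values below use all 28 arrays unless they are said to leave these cows out, and the differences that move most are given both ways. Array numbers in the sample titles form another split: 8 AA, 2 KA and 4 KK cows carry the numbers 29 to 42, and 3 AA, 11 KA and no KK cow the numbers 43 to 56. Whether the numbers mark a batch is not stated in the sources used here.

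**Figure D1:**
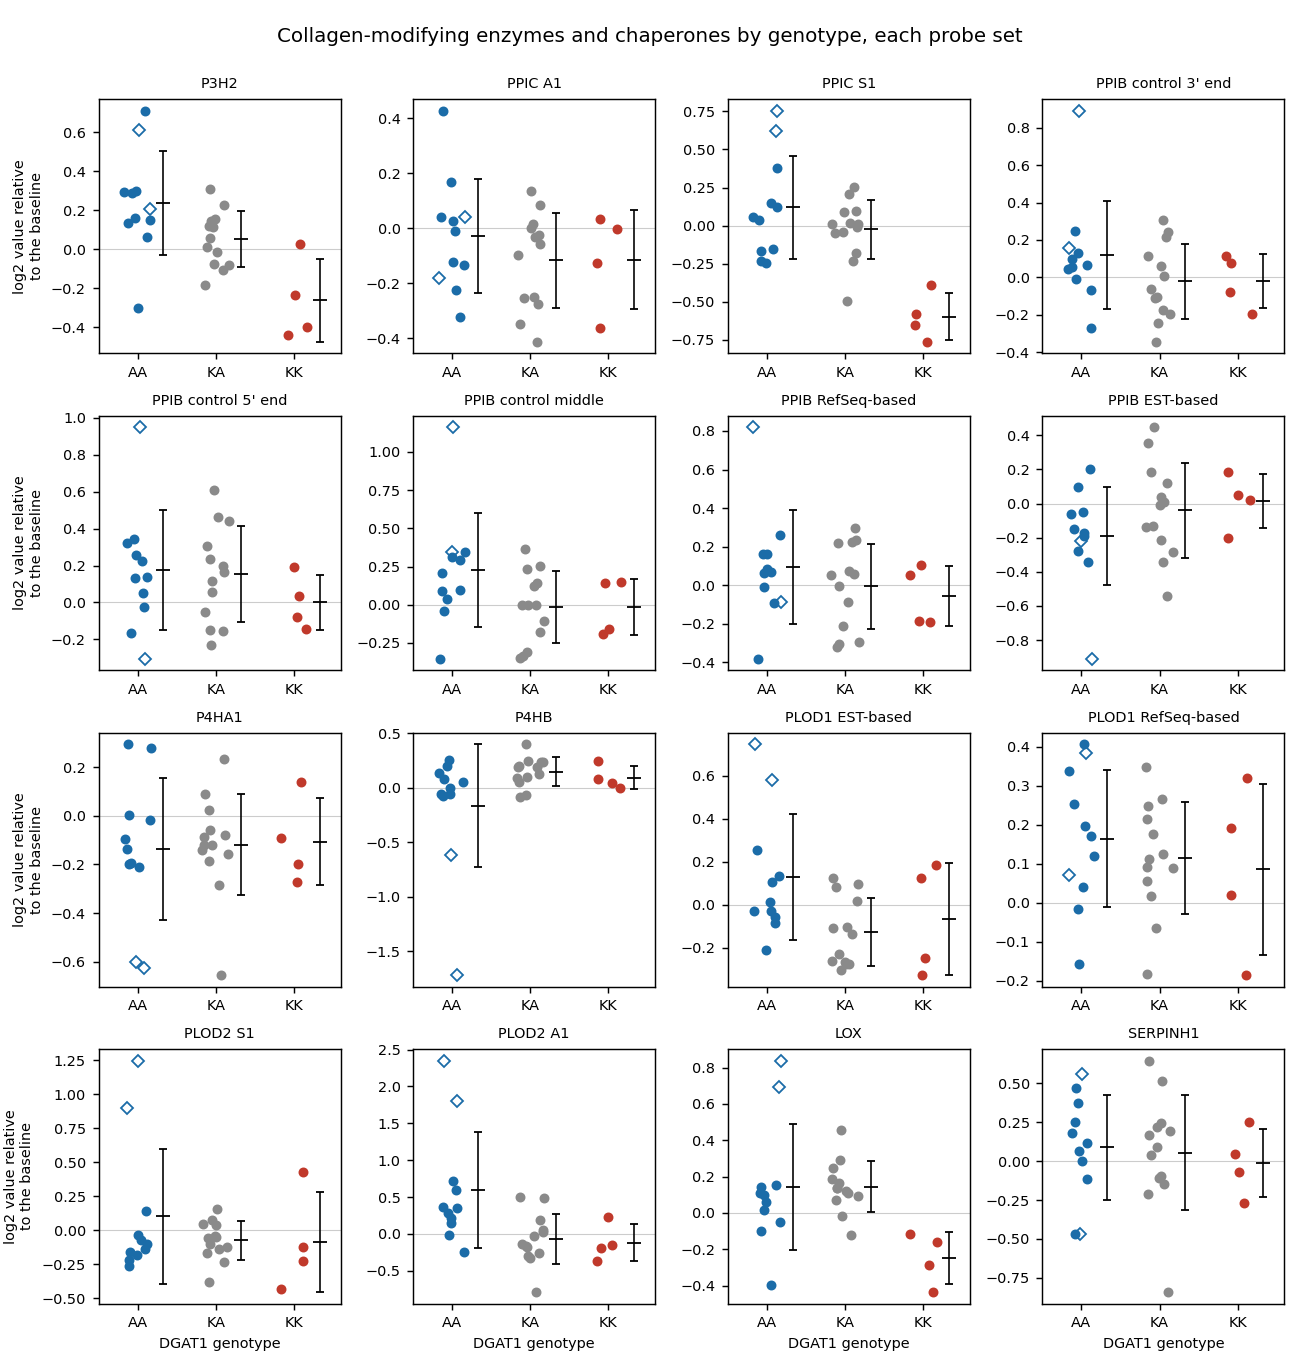
Log2 value relative to the baseline (vertical axis) of each of the 16 probe sets, by DGAT1 genotype (horizontal axis), 1 point per cow. Open diamonds are AA 2 and AA 9, and bars show the mean ± SD of all cows of the genotype. The 4 KK cows lie below every AA cow in PPIC S1 only.

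P3H2 hydroxylates prolines at the 3 position. Its single probe set had a lowest, median and highest value of -0.30, 0.21 and 0.71 in AA and of -0.18, 0.06 and 0.31 in KA. The KK values were -0.40, 0.03, -0.23 and -0.44. The groups were ordered AA, KA, KK by mean, at 0.24 ± 0.27 (SD, n = 11), 0.05 ± 0.14 (n = 13) and -0.26 ± 0.21 (n = 4). The ranges overlapped: KK 2 lay within AA and KA, and KK 3 within AA. AA 1, the lowest AA cow, lay within KK, as did several KA cows, down to the lowest at -0.18. The difference KK minus AA was -0.50 (SE 0.12), a 1.41-fold lower mean in KK, and -0.46 (SE 0.12) without AA 2 and AA 9. Within array numbers 29 to 42 it was -0.39. The slope was -0.23 (SE 0.06) per K allele and -0.21 (SE 0.06) without those cows. KA minus AA shares both its groups with the slope that helped choose P3H2, so nothing is read from its test. It was -0.19 (SE 0.09) and did not pass limma's test (adjusted p = 0.217). It was -0.15 (SE 0.09; limma adjusted p = 0.623) without AA 2 and AA 9. Its size depended on the array numbers, at -0.06 in 29 to 42 and -0.49 in 43 to 56, where AA is 3 cows.

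P4HA1 and P4HB are the catalytic and the disulfide-isomerase subunit of prolyl 4-hydroxylase. The genotype means of P4HA1 were close together, at -0.14 ± 0.29 (SD, n = 11) in AA, -0.12 ± 0.21 (n = 13) in KA and -0.11 ± 0.18 (n = 4) in KK. The lowest AA cows were AA 2 and AA 9, down to -0.62, 1 KA cow was at -0.66, and the 3 ranges overlapped. P4HB was among the steadiest probe sets on the array once AA 2 and AA 9 were set aside: its SD of 0.126 over 26 cows is at percentile 7.30 of tested probe sets. Those cows were at -1.72 and -0.62, while the other 26 ran from -0.09 to 0.40. KA minus AA was 0.31 (SE 0.15; limma adjusted p = 0.217) with them, and the AA mean moved from -0.17 to 0.06 without them. KK minus AA moved likewise from 0.26 (SE 0.21) to 0.04 (SE 0.08).

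PLOD1 and PLOD2 are lysyl hydroxylases, and PLOD2 acts on the telopeptide lysines that LOX crosslinks. PLOD2 A1 had the widest spread of the set, from -0.24 through a median of 0.35 to 2.35 in AA and from -0.79 through -0.13 to 0.50 in KA, with KK at -0.19, -0.36, 0.24 and -0.15. The top of the AA range was AA 9, followed by AA 2 at 1.80, and the 4 KK cows lay inside the KA range. KA minus AA was -0.67 (SE 0.22), the largest of the set in that contrast, and did not pass (limma adjusted p = 0.140). Without AA 2 and AA 9 it was -0.34 (SE 0.13; limma adjusted p = 0.395). Within array numbers 29 to 42 it was then -0.10, with 2 KA cows, and within 43 to 56 -0.60, with 2 AA cows. For KK minus AA it was -0.71 (SE 0.31), and -0.39 (SE 0.18) without AA 2 and AA 9. The other probe set, PLOD2 S1, gave -0.19 (SE 0.20) for KK minus AA and 0.03 (SE 0.11) without those cows, which were at 0.90 and 1.24.

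The PLOD1 probe sets also diverged. The EST-based one averaged 0.13 ± 0.29 (SD, n = 11) in AA, -0.13 ± 0.16 (n = 13) in KA and -0.07 ± 0.26 (n = 4) in KK, with AA 2 at 0.75 and AA 9 at 0.58 above all others. KA minus AA was -0.26 (SE 0.10; limma adjusted p = 0.162), and -0.14 (SE 0.07; limma adjusted p = 0.585) without those cows. The RefSeq-based one averaged 0.16, 0.12 and 0.09 in the same order, and neither AA 2 nor AA 9 left the range of the other cows. The 3 groups overlapped in both probe sets.

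PPIC is a cyclophilin-type isomerase of the secretory pathway. In PPIC S1 AA ran from -0.25 through a median of 0.06 to 0.75, and KA from -0.50 through 0.01 to 0.25. The KK cows were at -0.76, -0.58, -0.39 and -0.65. Every KK cow lay below every AA cow, the only probe set of the 16 for which this held, and KA 8 was the only KA cow to fall inside the KK range. Over all tested probe sets 0.0416% had every KK below and 0.05% every KK above every AA array; this contrast helped choose PPIC, so nothing is read from the count. PPIC S1 differed by -0.72 (SE 0.15) in KK minus AA, a 1.64-fold lower mean in KK. It was -0.59 (SE 0.12) without AA 2 and AA 9, which had the highest PPIC values, and -0.70 within array numbers 29 to 42.

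The AA and KA means of this PPIC probe set were close, at 0.12 ± 0.34 (SD, n = 11) and -0.02 ± 0.19 (n = 13), against -0.60 ± 0.16 (n = 4) in KK. KA minus AA was -0.14 (SE 0.10, limma adjusted p = 0.390), and the means were -0.01 and -0.02 without AA 2 and AA 9. Nothing is read from this test, since the slope that helped choose PPIC uses the same cows. KK minus KA, which shares the KK cows with the contrast used for the choice, was -0.57 (SE 0.15; limma adjusted p = 1.00). That limma adjusted p moved widely with the fit. Nothing is read from it in any fit, since the low values of the same KK cows helped choose PPIC. It was 0.0491 with array weights, 0.110 with COL1A2 as a covariate, 0.116 with only the 2 groups compared and 0.9998 with the array-number block. Without AA 2 and AA 9 and with COL1A2 as a covariate, a fit chosen after seeing the data, it was 0.0387. Without those cows and with no covariate, the smallest limma adjusted p of the 13 tested probe sets was 0.101.

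The other probe set, PPIC A1, averaged -0.03 ± 0.21 (SD, n = 11) in AA, -0.12 ± 0.17 (n = 13) in KA and -0.11 ± 0.18 (n = 4) in KK. KK minus AA was -0.09 (SE 0.11), and the groups overlapped throughout. Across the 26 cows without AA 2 and AA 9 the PPIC probe sets correlated at r = 0.13 (Spearman rho = 0.06), which did not pass a permutation test (p = 0.522). The low KK values were thus seen in 1 probe set of the pair, the brighter one.

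PPIB, cyclophilin B, forms a complex with prolyl 3-hydroxylase 1 and CRTAP that acts on collagen. It has 5 probe sets, of which 3 are the array's control probe sets for the 5′ end, the middle and the 3′ end of the transcript. In the RefSeq-based probe set the genotype means were 0.10 ± 0.29 (SD, n = 11) in AA, -0.01 ± 0.22 (n = 13) in KA and -0.05 ± 0.15 (n = 4) in KK, and the ranges overlapped. KK minus AA was -0.15 (SE 0.14), and -0.14, -0.17 and -0.24 in the 3′, 5′ and middle controls. In the EST-based one it had the other sign, at 0.20 (SE 0.15). Without AA 2 and AA 9 these values were -0.09 (SE 0.12) in the RefSeq-based probe set, -0.05, -0.14 and -0.12 in the controls and 0.12 (SE 0.14) in the EST-based one. AA 9 was highest in the RefSeq-based probe set and the 3 controls, at 0.82 in the RefSeq-based one and 1.16 in the middle control, and lowest in the EST-based one, at -0.91.

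SERPINH1 varied widely among cows and little between genotypes. AA ran from -0.47 through a median of 0.12 to 0.56, KA from -0.84 through 0.09 to 0.64, and KK was at -0.27, -0.07, 0.05 and 0.25. The KK cows lay inside both other ranges. For SERPINH1, KK minus AA was -0.10 (SE 0.19), KA minus AA -0.03 (SE 0.13) and KK minus KA -0.07 (SE 0.19). Leaving out AA 2 and AA 9 gave -0.11 (SE 0.18) for KK minus AA and -0.04 (SE 0.13) for KA minus AA.

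LOX was near the baseline or above it in most AA and KA cows and below it in all KK cows. AA ran from -0.39 through a median of 0.10 to 0.84, KA from -0.12 through 0.14 to 0.46, and the KK cows were at -0.16, -0.28, -0.43 and -0.11. KK 4 lay just above KA 2, the lowest KA cow, and AA 11 lay within KK. KK minus KA was -0.39 (SE 0.14; limma adjusted p = 1.00), and KK minus AA was -0.39 (SE 0.14), or -0.25 (SE 0.10) without AA 2 and AA 9, which were at 0.84 and 0.69. KA minus AA was 0.004 (SE 0.10; limma adjusted p = 0.984) over all cows and 0.14 (SE 0.07; limma adjusted p = 0.525) without AA 2 and AA 9. The latter depended on the array numbers. It was -0.04 in 29 to 42, where KA is 2 cows, and 0.39 in 43 to 56, where AA is then 2 cows.

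**Figure D2:**
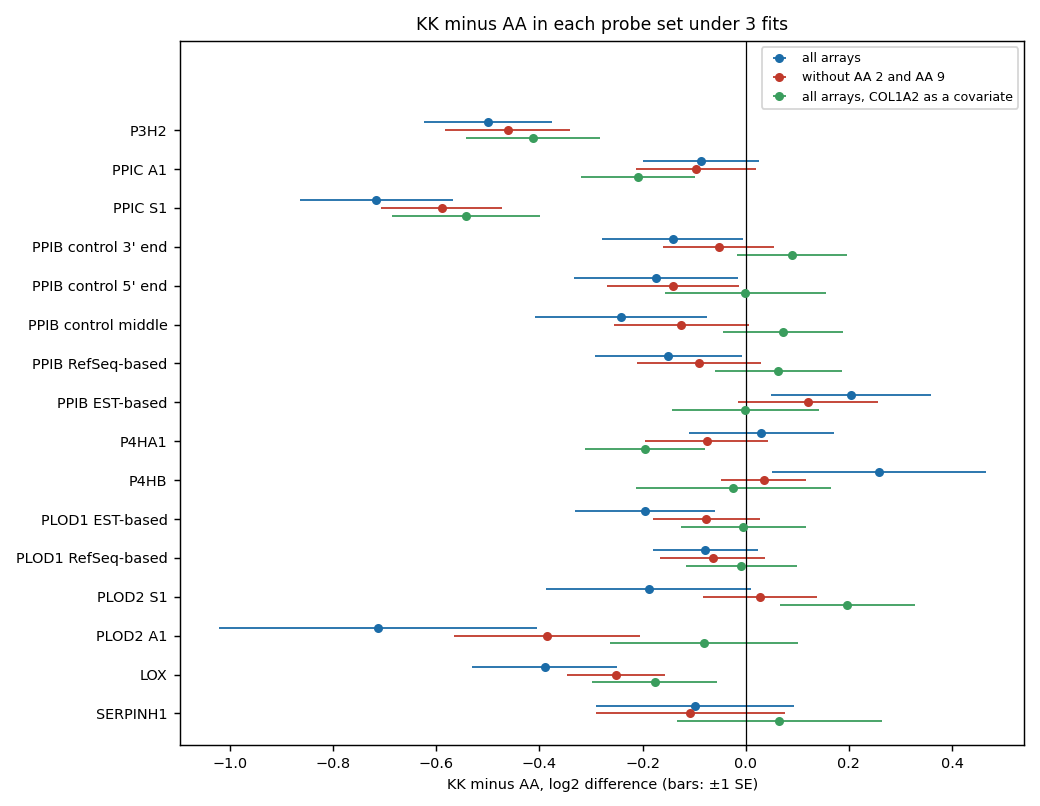
KK minus AA in log2 (horizontal axis) for each probe set (vertical axis), with bars of 1 SE, in 3 fits: all 28 arrays, 26 arrays without AA 2 and AA 9, and all arrays with COL1A2 as a covariate. PPIC S1 runs from -0.72 to -0.54 and P3H2 from -0.50 to -0.41 over these fits, while PLOD2 A1 runs from -0.71 to -0.08.

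With limma and an adjusted p under 0.05, none of the 13 tested probe sets passed in any of the 4 contrasts, and neither did any of the 24016 on the array. At an unadjusted p under 0.05, 4 of the 13 were lower and none higher in KK than in AA. The background was 1.51% lower and 2% higher. In KK minus KA 3 were lower and none higher (PPIC S1, LOX and P3H2), against 1.39% and 1.44% of all tested probe sets. In KA minus AA 3 were lower (PLOD2 A1, the EST-based PLOD1 probe set and P3H2) and 1, P4HB, was higher, against 11.1% and 10.8%. That contrast without AA 2 and AA 9 had 1 lower, PLOD2 A1, and 1 higher, LOX, against 4.3% and 5.2%. With the array numbers as a block it had 4 lower, the RefSeq-based PLOD1 probe set now among them, and the 1 higher was the EST-based PPIB probe set, against 11.1% and 10.1%. For the slope 5 were lower, and none higher, against 4.48% and 4.68%, and 3 were lower and none higher without AA 2 and AA 9, against 1.55% and 1.71%. Nothing is read from the counts for KK minus AA and the slope, since these contrasts helped choose the set. With all cows these counts include PPIC S1 and P3H2, which were chosen on these p-values. Neither is anything read from the count for KK minus KA. It shares the KK cows with KK minus AA and includes PPIC S1 and P3H2. Over all 28 arrays the KA minus AA counts include P3H2, and the slope that helped choose it uses the same cows. The contrasts share cows, so these counts are not separate evidence.

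COL1A2 encodes a chain of type I collagen. Its S1 probe set, the covariate used here, was at -0.36 ± 0.34 (SD, n = 4) in KK, 0.03 ± 0.34 (n = 13) in KA and 0.45 ± 0.87 (n = 11) in AA. It was at 0.09 ± 0.38 (n = 9) in AA without AA 2 and AA 9. Its S2 probe set was at -0.29 in KK, -0.01 in KA and 0.11 in AA, and at -0.14 in AA without those cows. Of the 15 fibroblast marker probe sets, COL1A2 among them, 13 had a negative slope per K allele, with a median of -0.33, and none passed limma's test; over all tested probe sets 11056 slopes were negative and 12960 positive. With those AA cows left out all 15 were negative, with a median of -0.16, and none passed. Their mean ranged from -0.46 to -0.05 in KK, -0.40 to 0.23 in KA and -0.45 to 0.42 in AA without those cows. With COL1A2 as a covariate, KK minus AA was -0.54 (SE 0.14) in PPIC S1 and -0.41 (SE 0.13) in P3H2. In PLOD2 A1 it was -0.08 (SE 0.18) and in LOX -0.18 (SE 0.12). Without AA 2 and AA 9 the same covariate left -0.62 (SE 0.13) in PPIC, -0.43 (SE 0.13) in P3H2, -0.24 (SE 0.11) in LOX and -0.18 (SE 0.17) in PLOD2.

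The correlation with COL1A2 (its S1 probe set) was computed across the 26 cows without AA 2 and AA 9, with two-sided permutation tests of 100000 resamples and Benjamini-Hochberg adjustment over the 16 probe sets. Of the 16, 13 had a positive r, beside 45.5% of all tested probe sets, and 6 an r of at least 0.5, all of them in PPIB, SERPINH1 and PLOD2. The 16 include the 3 PPIB controls, which are not among the tested probe sets. These controls correlated with each other and with the RefSeq-based PPIB probe set at 0.75 to 0.95, so 1 transcript counts several times. Of the 13 tested ones 3 reached 0.5, where the background was 4.91%. The median over the 13 was 0.31, beside -0.04 for all tested probe sets.

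The largest r with COL1A2 were in SERPINH1 and in 4 of the 5 PPIB probe sets. The RefSeq-based PPIB probe set had r = 0.68 (rho = 0.66; permutation p = 0.00021, adjusted p = 0.00112). The PPIB controls had r = 0.69 in the middle, 0.62 at the 5′ end and 0.58 at the 3′ end, with adjusted permutation p of 0.00112, 0.00236 and 0.00571 and rho of 0.66, 0.65 and 0.55. The EST-based PPIB probe set had the other sign, at r = -0.39 (permutation p = 0.0497, adjusted p = 0.0994), rho = -0.47 (permutation p = 0.0179, adjusted p = 0.0358) and r = -0.62 over all 28 arrays. SERPINH1 had r = 0.65 (rho = 0.61; permutation p = 0.0002, adjusted p = 0.00112). Without KK 1 and AA 1, the cows farthest from the COL1A2 median, r was 0.60 in the RefSeq-based PPIB probe set and 0.63 in SERPINH1, and with the genotype means subtracted it was 0.69 and 0.66. Within array numbers 29 to 42 and 43 to 56 it was 0.82 and 0.59 in the RefSeq-based PPIB probe set and 0.62 and 0.72 in SERPINH1. In 29 to 42 the PPIB probe set passed (adjusted permutation p = 0.00267) and SERPINH1 did not (adjusted permutation p = 0.0513). In 43 to 56 neither passed (adjusted permutation p of 0.140 and 0.0766). Among the 9 AA cows r was 0.68 in the RefSeq-based PPIB probe set and 0.65 in SERPINH1. Without AA 1 (n = 8) these were 0.10 and 0.71. Among the 13 KA cows they were 0.66 and 0.65. Neither probe set passed among the 9 AA cows (adjusted permutation p of 0.143 in both) or the KA cows (0.0766 in both).

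PLOD2 A1 had r = 0.53 (rho = 0.58; permutation p = 0.00604, adjusted p = 0.0138), with 0.50 without KK 1 and AA 1, 0.71 within numbers 29 to 42 and 0.38 within 43 to 56. The last did not pass (adjusted permutation p = 0.322). Among the 9 AA cows it had r = 0.54, which was 0.06 without AA 1 (n = 8), and among the 13 KA cows 0.52. PLOD2 A1 did not pass among the 9 AA cows (adjusted permutation p = 0.202) or the KA cows (0.168). PPIC A1 ran against COL1A2, at r = -0.61 (rho = -0.57; permutation p = 0.00088, adjusted p = 0.00282), and 5.33% of tested probe sets had an r of -0.5 or below. Its r was -0.60 and -0.62 in the lower and upper array numbers and -0.51 without KK 1 and AA 1. It did not pass in either range of array numbers (adjusted permutation p of 0.0549 and 0.140).

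**Figure D3:**
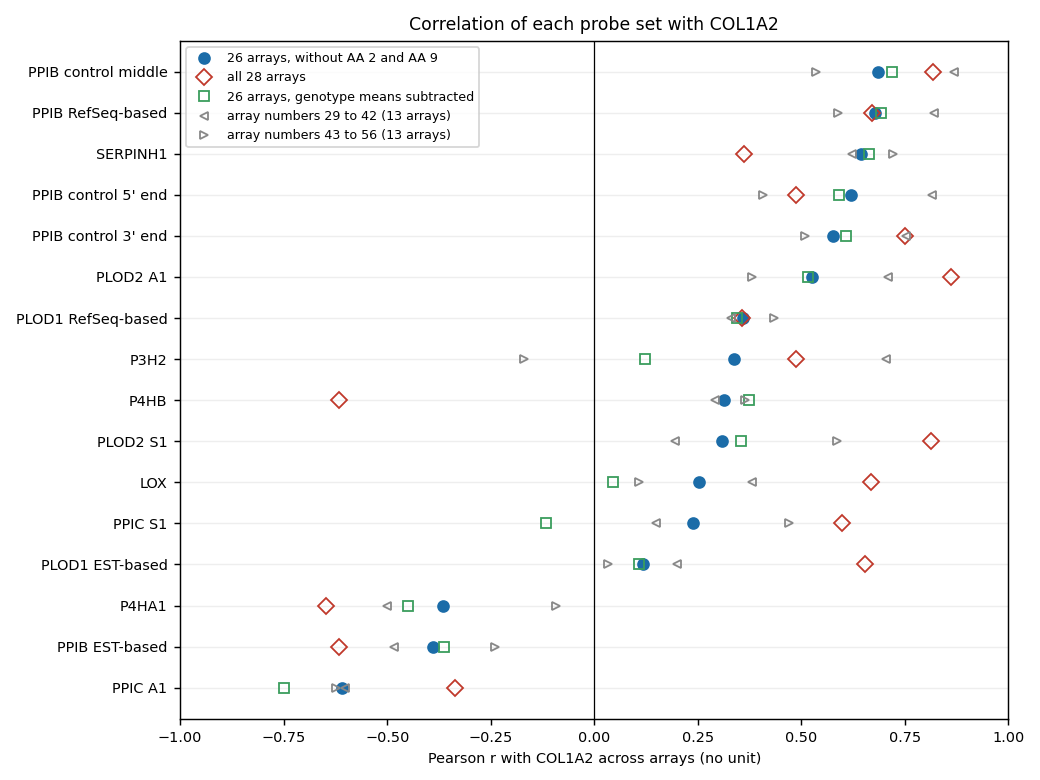
Pearson r with COL1A2 (horizontal axis, no unit) for each of the 16 probe sets (vertical axis) over 26 arrays, all 28 arrays, 26 arrays with genotype means subtracted, and each range of array numbers. P4HB moves from 0.31 over 26 arrays to -0.62 over 28, and P3H2 from -0.17 to 0.71 between the array-number ranges.

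PLOD2 A1 passed the test with COL1A2, while PPIC S1, P3H2 and LOX did not. PPIC S1 had r = 0.24 (rho = 0.05; permutation p = 0.238, adjusted p = 0.254), P3H2 had r = 0.34 (rho = 0.33; p = 0.0921, adjusted p = 0.134) and LOX had r = 0.25 (rho = 0.24; p = 0.214, adjusted p = 0.244). With the genotype means subtracted these became -0.12, 0.12 and 0.05. Among the 9 AA cows alone PPIC S1 had r = -0.85 (exact permutation p = 0.00274, adjusted p = 0.0439), which was -0.70 without AA 1 (n = 8, exact permutation p = 0.0447, adjusted p = 0.463). Among the 13 KA cows it was 0.35, and the difference between genotypes was not tested. P3H2 had r = 0.71 in array numbers 29 to 42 (permutation p = 0.00804, adjusted p = 0.0222) and -0.17 in 43 to 56, and the first was 0.50 without AA 1 and KK 1.

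**Figure D4:**
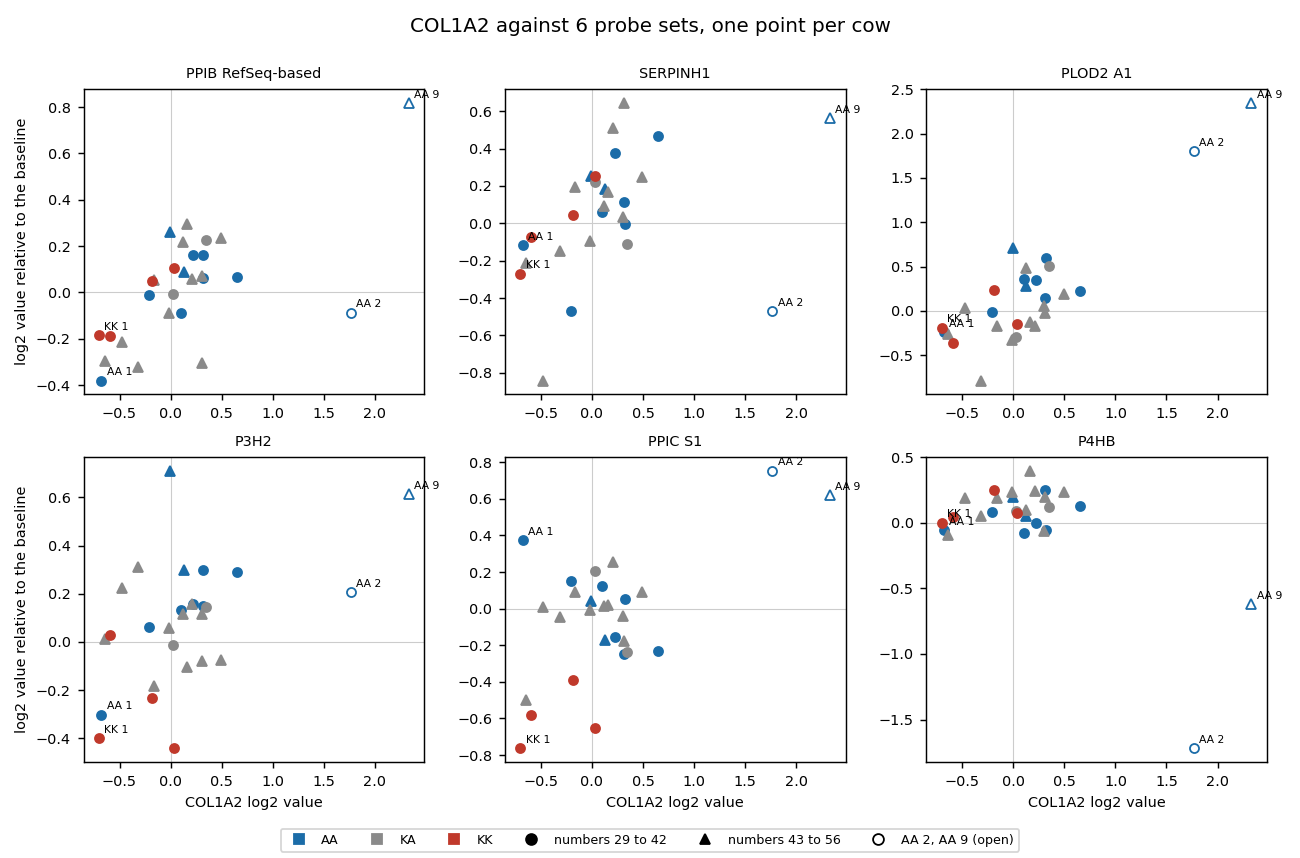
COL1A2 (horizontal axis) against 6 probe sets (vertical axes), both as log2 values relative to the baseline, 1 point per cow, coloured by genotype and shaped by array-number range. AA 2 and AA 9 (open) lie at COL1A2 values of 1.77 and 2.33, beyond all other cows, and P4HB is at -1.72 and -0.62 there.

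The hydroxylases other than PLOD2 A1 also stayed short of the threshold. The RefSeq-based PLOD1 probe set had r = 0.36 and the EST-based one 0.12, P4HB 0.31, PLOD2 S1 0.31 and P4HA1 -0.36. Adding AA 2 and AA 9 raised r to 0.81 in PLOD2 S1, 0.65 in the EST-based PLOD1 probe set, 0.67 in LOX and 0.60 in PPIC S1, and turned P4HB to -0.62. In SERPINH1 it lowered r to 0.36, since AA 2 combined a high COL1A2 with a SERPINH1 value of -0.47. The values over 28 arrays therefore rest on these cows.

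The choice of the collagen probe set mattered. COL3A1 S1 gave r = 0.74 with the RefSeq-based PPIB probe set, 0.73 with PLOD2 A1 and 0.44 with SERPINH1, and COL1A1 S1 gave 0.57, 0.36 and 0.57. COL1A1 S1 also gave 0.61 with the RefSeq-based PLOD1 probe set and 0.52 with P4HB. COL1A2 S2 and COL1A1 A1 gave no r of 0.5 or more with any of the 16. The COL1A2 probe sets correlated with each other at only 0.25 (rho = 0.31; permutation p = 0.209), and those of COL1A1 at -0.002, while those of COL3A1 reached 0.92.

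**Figure D5:**
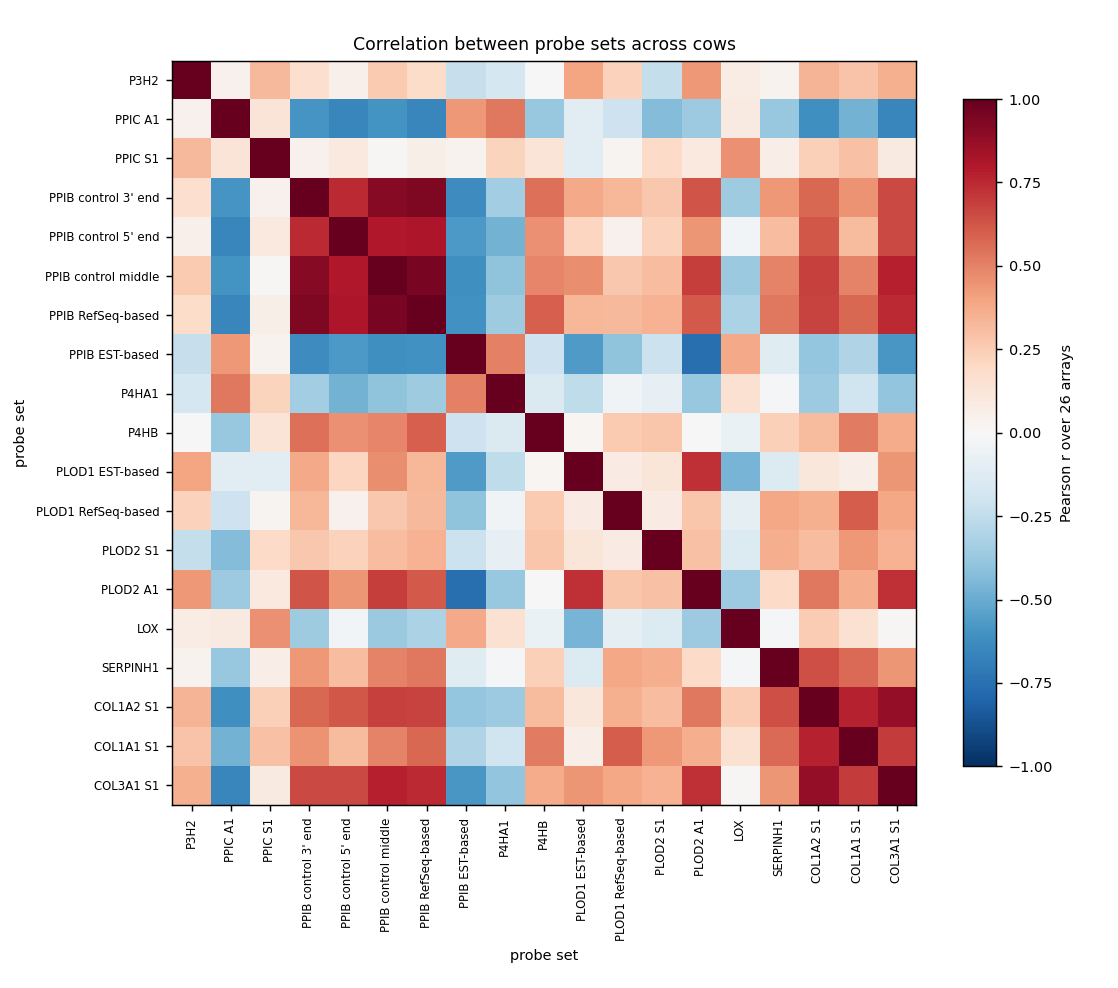
Pearson r over 26 arrays (colour scale, from -1 to 1) between the 16 probe sets and the COL1A2, COL1A1 and COL3A1 probe sets named on both axes. The RefSeq-based PPIB probe set and the PPIB controls form a block at 0.75 to 0.95, and the EST-based PPIB probe set is at -0.58 to -0.63 with them.

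Probe sets of the same gene were compared over the 26 cows in 16 pairs, collagens included. The 3 PPIB controls and the RefSeq-based probe set correlated with each other at 0.75 to 0.95, whereas the EST-based one correlated with them at -0.58 to -0.63 (adjusted permutation p of 0.00118 to 0.00279). Without KK 1 and AA 1 the latter were -0.45 to -0.55. The sign of a PPIB result therefore depends on which probe set is read, and the one that opposes the others is also the dimmer. The PLOD2 pair correlated at 0.29 (rho = 0.28; permutation p = 0.145) and at 0.82 once AA 2 and AA 9 were added, and the PLOD1 pair at 0.09 (rho = 0.04; p = 0.677).

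Between genes, the pairs among the 16 probe sets are given as a description over cows that share arrays. The EST-based PLOD1 probe set and PLOD2 A1 were at r = 0.73. The EST-based PPIB probe set and PLOD2 A1 were at -0.75. The RefSeq-based PPIB probe set was at 0.59 with P4HB and 0.53 with SERPINH1, and PPIC S1 at 0.46 with LOX. P4HA1 and P4HB, the subunits of 1 enzyme, were at -0.14.

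The likest probe sets of other genes were taken for each, 3 per probe set by Pearson r over 26 cows from 13279 candidates. For PLOD2 A1 the first was FBN1, which encodes the microfibril protein fibrillin-1, at 0.88. Next came DNAJC18 at 0.85 and POMC at 0.84. For the RefSeq-based PLOD1 probe set it was EMILIN1, an elastic-fibre glycoprotein, at 0.78, then KDM5C at 0.77 and MCRIP1 at 0.76. SERPINH1 had MYADM at 0.81, HSPG2, the basement membrane proteoglycan perlecan, at 0.80, and DDX39B at 0.78. P4HB had the translation initiation factors EIF4G1 at 0.83 and EIF3B at 0.82, and UBL4A at 0.80. The RefSeq-based PPIB probe set had the ribosomal protein genes RPL24 at 0.89 and RPS18 at 0.88, and GLUD1 at 0.87. PPIC S1 had PRELP, a small leucine-rich proteoglycan, at 0.67, which was 0.05 over all 28 cows. SSBP4 at 0.66 and NKAPL at 0.64 followed, which were 0.04 and 0.09 over all 28 cows. P3H2 had no r above 0.66, with RPS3 first, and LOX had TM9SF4 first at 0.74, which was -0.29 over 28 cows. Next came KBTBD4 and NARF at 0.63 for P3H2, and MEF2A at 0.73 and RBBP5 at 0.72 for LOX. The first was ODR4 at 0.85 for PPIC A1, RDH12 at 0.80 for P4HA1 and UST at 0.68 for PLOD2 S1. In the EST-based PLOD1 and PPIB probe sets it was TRIP12 at 0.81 and INSYN1 at 0.87. In the 3′, 5′ and middle PPIB controls it was RPL22 at 0.86, CXCL16 at 0.86 and KATNA1 at 0.88.

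Other genes of the pathway were counted by the sign of the slope per K allele, with 11056 lower and 12960 higher over all tested probe sets, or 11222 and 12794 without AA 2 and AA 9, and none passed the test. Of 25 probe sets in 18 further genes of collagen modification and processing, 16 were lower and 9 higher, with a median of -0.05, or 18 and 7 with a median of -0.04 without those cows. Among those with the smallest slope p were PCOLCE2, an enhancer of procollagen C-proteinase, at -0.40 (SE 0.15), CRTAP, the partner of prolyl 3-hydroxylase 1, at -0.28 (SE 0.13), and FKBP10, a collagen-directed isomerase, at -0.19 (SE 0.09). Without AA 2 and AA 9 these were at -0.24 (SE 0.11), -0.22 (SE 0.14) and -0.12 (SE 0.09). Of 20 collagen chain probe sets 14 were lower, with a median of -0.07, and COL3A1 S1 was at -0.30 (SE 0.13). The mean of the list was 0.34 in AA 2 and 0.66 in AA 9, above a range of -0.32 to 0.32 in the rest, and without those cows 15 were lower, with a median of -0.05 and COL3A1 S1 at -0.14 (SE 0.10). All 9 probe sets of the small leucine-rich proteoglycans were lower, with a median of -0.30, led by OGN at -0.52 (SE 0.14). The mean of this list was 0.81 in AA 2, 1.58 in AA 9 and between -0.63 and 0.44 in every other cow. Without those cows all 9 were still lower, with a median of -0.16 and OGN at -0.35 (SE 0.11).

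The general folding machinery was counted separately, since P4HB and PPIB take part in it. Of 26 probe sets for endoplasmic reticulum folding 3 were lower and 23 higher per K allele, with a median of 0.08. PDIA4, a disulfide isomerase, was at 0.21 (SE 0.09) and DNAJB9, a co-chaperone, at 0.25 (SE 0.11). This list averaged -0.43 in AA 2 and -0.47 in AA 9, below the range of -0.25 to 0.27 of the other cows, and without those cows 7 were lower and 19 higher, with a median of 0.04, PDIA4 at 0.12 (SE 0.08) and DNAJB9 at 0.17 (SE 0.09). Of 23 probe sets of other peptidyl-prolyl isomerases 14 were lower and 9 higher, with a median of -0.02; FKBP7 was at -0.24 (SE 0.10) and PPIA at 0.10 (SE 0.05). The counts were 12 and 11 without AA 2 and AA 9, with FKBP7 at -0.09 (SE 0.06) and PPIA at 0.05 (SE 0.05). Of 20 hypoxia-response probe sets, a group to which P4HA1, PLOD2 and LOX also respond, 8 were lower and 12 higher, with a median of 0.02, or 6 and 14 with a median of 0.03 without those cows.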

How the data were processed

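Values came from the deposited table of 24128 probe sets on 28 arrays. The authors deposited log2 values, made with Bioconductor 2.7 and R 2.13 per the labels' protocols. RMA and GCRMA are both named, per the submitters' processing notes, without saying which gave these values. Their scale was found from the values to be log2; the baseline subtracted from each probe set is not stated. No coordinates or sequences are printed, since the genome build of the probe sets is not named.

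The 112 control probe sets were left out of the tests. Of the rest, 13292 had 1 symbol, 86 several and 10638 none, and 13263 of the 13292 were found among RefSeq genes (assembly ARS-UCD2.0). Genotypes were compared by lmFit and eBayes in limma 3.58.1 (R 4.3.3, a mean per genotype or a slope over 0, 1 and 2 K alleles), adjusting p over all 24016 by Benjamini-Hochberg and calling below 0.05. The 3 PPIB controls have fitted values and no p. Correlations used permutation tests, exact where fewer than 10 cows entered. Level classes required 90% of small values to lie on the rounding step of that level. The fits were tested on simulated data.

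The members and gene lists were chosen with earlier results of these data known. Named were all member probe sets, COL1A2, and up to 4 probe sets per list by the smallest slope p, as values only. Of the 3 likest probe sets per member probe set, all were named for some and the first for the others. Pairs and collagen references were named after their values were seen. Alternatives were quantile normalization, centring, array weights, a robust prior, an array-number block, COL1A2 as a covariate, only the groups compared, other reference probe sets, and leaving out AA 2 and AA 9 or each KK array.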

Additional observations from a re-analysis of the deposited data

How the results depend on the processing

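The counts of probe sets past adjusted p 0.05 were 0 in all 4 contrasts. KK minus AA and the slope stayed at 0 under every alternative run. KA minus AA had 47 calls with quantile normalization, 104 with array weights, 1 without AA 2 and AA 9 with the array-number block, 12 at a threshold of 0.10, and 0 to 5 when each KK array was left out, with 5 without KK 3; none was a collagen-modifying probe set. KK minus KA had 3 with array weights, 44 with COL1A2 as a covariate and 23 with that covariate without AA 2 and AA 9. PPIC S1 was among the first and the last of these, and no other collagen-modifying probe set was called. Nothing is read from the PPIC S1 calls, since the same KK cows helped choose it. The count of 6 with r of at least 0.5 with COL1A2 was 5 to 6 without each KK array, 2 among AA cows without AA 1, and 0 with the references COL1A1 A1 and COL1A2 S2. With these references, in that order, r turned to 0.28 and 0.043 in PPIC A1, -0.30 and -0.092 in the 3′, -0.34 and -0.11 in the 5′ and -0.37 and -0.057 in the middle PPIB control, and -0.41 and -0.045 in the RefSeq-based PPIB probe set; with the COL1A1 reference it was -0.25 in PLOD2 A1 and -0.092 in SERPINH1. The cause was not tested. The fits without AA 2 and AA 9 that add the block or the covariate, and the correlations without KK 1 or AA 1, were chosen after seeing the data. No paired analysis was possible because each cow has 1 genotype and replicate numbers only name the cows. Absolute signal over background is unknown.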

Other observations

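PPIC and LOX lie on chromosome 7 in the RefSeq assembly ARS-UCD2.0 with 7 protein-coding genes between them, of which 3 have a tested probe set. This set of genes was chosen after the values of PPIC and LOX were seen. The means of PPIC S1 and LOX were lowest in KK, while PPIC A1 averaged -0.114 in KK and -0.116 in KA. Of the genes on other chromosomes, P3H2, SERPINH1 and both PLOD2 probe sets also had their lowest mean in KK. So did the RefSeq-based PLOD1 and PPIB probe sets and the 5′ and middle PPIB controls. P4HA1, P4HB, the EST-based PLOD1 and PPIB probe sets and the 3′ PPIB control did not. KK minus AA was -0.45 (SE 0.33) in SNX24, -0.25 (SE 0.22) in SNX2, both sorting nexins, and -0.11 (SE 0.12) in SNCAIP. The KK cows ran from -0.17 to 0.03 in SNX24, from -0.20 to 0.16 in SNX2 and from -0.55 to 0.25 in SNCAIP. The AA cows ran from -0.26 to 2.93, from -0.30 to 1.59 and from -0.27 to 0.22. Without AA 2 and AA 9 KK minus AA was -0.10 (SE 0.12) in SNX24, -0.003 (SE 0.11) in SNX2 and -0.14 (SE 0.12) in SNCAIP. Over 26 cows SNX24, SNX2 and SNCAIP correlated with PPIC S1 at r = 0.17, -0.13 and -0.07, beside 0.46 for LOX. These r pool the genotypes, and PPIC S1 and LOX are both low in the KK cows.

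The PPIB controls for the 3′ and 5′ ends allow a difference per cow, on the log2 scale and relative to their baselines. It averaged -0.11 ± 0.15 (SD, n = 9) in AA without AA 2 and AA 9, -0.18 ± 0.14 (n = 13) in KA and -0.02 ± 0.09 (n = 4) in KK. In AA 2 it was 0.46, above all other cows, and in AA 9 it was -0.06.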
